A study of Mus musculus with 45 samples.

Results

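The second day of differentiation out of 2iL was examined with 6 of the 45 libraries of the series, chosen by their titles, which name day 1 and day 2 of the 3 time courses from 2iL. The series follows RNA levels in male mouse ESCs as they leave naive pluripotency, by strand-specific sequencing of RNA depleted of ribosomal RNA. All libraries came from E14tg2a cells (the XY1 line) of the 129/Ola strain, which is 1 established male cell line, described as wild type. Before day 0 the cells of the 6 libraries grew in 2iL, a serum-free medium (N2B27) with LIF and the inhibitors CHIR99021, which blocks GSK3, and PD0325901, which blocks MEK, and they were moved out of it after at most 3 passages. The serum EB course was a suspension culture in serum without LIF that forms embryoid bodies. The FA course was an adherent culture in N2B27 with Fgf2 and Activin A, and its libraries are labelled EpiSC. The N2B27 course was an adherent culture in N2B27 alone, and its libraries are labelled neural. Days 1 and 2 of a course are separate dishes with 1 library each, so the 3 courses served as the replicates of a day, and no condition had a second library. Days 1 and 2 of the same courses from SL (serum and LIF) are 6 further libraries, used here only to ask where the change out of 2iL differed.

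2iL holds ESCs in a naive state by blocking ERK signalling and by raising beta-catenin and Stat3 activity. When the inhibitors and LIF are removed, the circuit of transcription factors that sustains the naive state is dismantled, and the cells pass through a formative state, resembling the epiblast shortly after implantation, before they acquire lineage identity. Xist, the long non-coding RNA that coats and silences an X chromosome in female cells, is repressed by the naive circuit.

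Between 15174423 and 39253633 reads were counted on genes in the 6 libraries. Values are given as CPM (counts scaled to a common library size of reads on genes, scaled by TMM normalization over all libraries of the series). Before the TMM scaling, 3 counts correspond to 0.0764 to 0.198 CPM. The serum EB libraries were the deepest of the 3 courses on both days. No pair of libraries resembled a repeat deposit, since even the closest pair differed 36.7 times more than counting noise would give. Genes of the mitochondrial genome took 2.38% to 3.66% of the counts at day 1 and 0.982% to 2.47% at day 2, and the share was lower at day 2 in each course. The 10 most abundant genes rose from 15.6% to 22.1% of the N2B27 library and stayed below 10% in the other courses.

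Of 14056 genes tested, 1842 rose and 1830 fell between day 1 and day 2, which is 13.1% and 13.0% of the genes tested (26.1% in all). These shares stand beside each count of list members called below. The test was edgeR's quasi-likelihood test with the course as a block, at an adjusted p of 0.05 over all genes tested, and log2 fold changes are those of this fit with their standard errors. All 3672 called genes moved in the same direction in each of the 3 courses. The blocked test favours genes whose courses agree, so this count follows largely from the selection. A change of at least 4-fold (2 on the log2 scale) was reached by 351 of the genes that rose and by 277 of those that fell. The median change of all genes tested was -0.000119 on the log2 scale. A gene low on 1 day could pass the filter on low counts through the other day alone. The direction of such a gene was largely set by that filter. Since the replicates are 3 different conditions, the p-values measure how far a change was shared between conditions. Without the block 837 genes rose and 952 fell, and with only the serum EB and N2B27 courses 580 rose and 635 fell. With only the serum EB and FA courses the counts were 743 and 848, and with only the FA and N2B27 courses they were 2829 and 2730.

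Genes are named for the size of their change where the mean over the 6 libraries was at least 5 CPM. Cubn, the endocytic receptor cubilin (ENSMUSG00000026726, genome build GRCm38, chr2:13276338-13491813, negative strand), was at 3.26, 1.44 and 4.28 CPM at day 1 in the serum EB, FA and N2B27 courses, an order of courses kept for all values here, and at 192, 106 and 58.6 at day 2. Its log2 fold change was 5.20 ± 0.47 (SE, adjusted p = 0.0019). Amot, which encodes the Hippo pathway scaffold angiomotin (chrX:145446425-145505181, negative strand), went from 7.04, 1.76 and 1.85 CPM to 85.2, 117 and 65.1. For both genes the lowest day 2 library was above the highest day 1 library. Dab2, an endocytic adaptor that works with cubilin, rose from 1.34, 0.627 and 1.85 CPM to 51.6, 31.0 and 16.6 (log2 fold change 4.60 ± 0.47, adjusted p = 0.0026). The other genes among the 12 largest rises at this level had log2 fold changes between 3.70 and 3.99. They were Cthrc1, a secreted collagen-related protein, Setbp1, the Wnt ligand gene Wnt8a, the interferon-inducible GTPase gene Gbp2, Vrtn, Fam131b, the cannabinoid receptor gene Cnr1, Ap3b2 and Kif1a, the last 2 of which work in neuronal vesicle transport. In Gbp2 the days overlapped, at 3.84, 0.125 and 0 CPM against 29.3, 7.96 and 2.67. Vrtn was uneven between courses, with 32.0, 1.25 and 1.38 CPM at day 1 and 106, 65.4 and 54.5 at day 2.

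The largest fall at this level was that of Inhbb, which encodes the beta-B subunit of activin B (ENSMUSG00000037035, chr1:119415465-119422248, negative strand). It was at 5.61, 32.4 and 36.9 CPM at day 1 and at 0.518, 0.357 and 0.317 at day 2 (log2 fold change -5.31 ± 0.61, adjusted p = 0.0034). Jam2, a junctional adhesion molecule, had the lowest adjusted p of the 23 genes named here for the size of their change. It fell from 75.5, 126 and 96.3 CPM to 2.95, 3.92 and 3.24 (log2 fold change -4.84 ± 0.12, adjusted p = 6.4e-05), with day 2 libraries that all lay far below those of day 1. Other large falls were of Catip, a gene of ciliogenesis, the Ras-related gene Mras, Gm13128, the tetraspanin gene Cd37, Bhmt, a methyltransferase of homocysteine metabolism, Khdc3, a component of the maternal complex of the oocyte, the histone methyltransferase gene Smyd1, the homeobox gene Crxos and the autophagy receptor gene Calcoco2, with log2 fold changes between -5.28 and -3.87. Gm13128 may share reads with related copies and its value is uncertain. Inhbb, Catip, Cd37 and Smyd1 had been lower at day 0, before the cells left 2iL, than at day 1 in the FA and N2B27 courses. Smyd1, for example, was at 11.4, 20.3 and 14.1 CPM at day 0, 32.0, 44.1 and 39.0 at day 1, and 1.04, 3.63 and 4.19 at day 2.

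**Figure D1:**
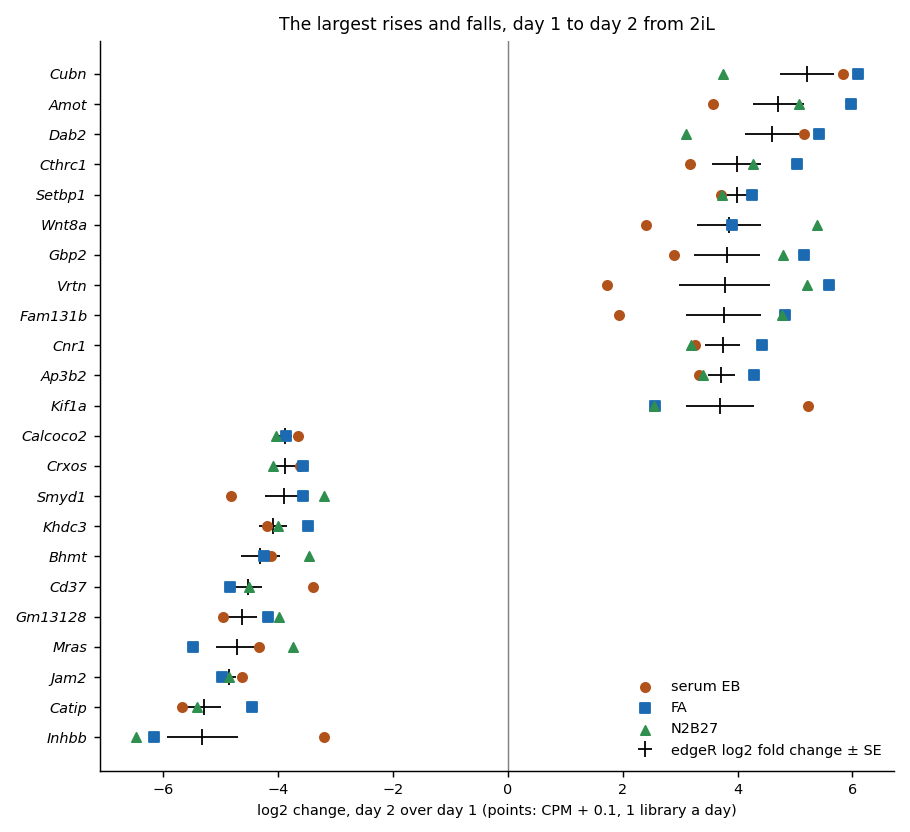
Log2 change (x axis) between day 1 and day 2 out of 2iL for 23 genes (y axis), 12 with large rises and 11 with large falls. Coloured points are the change in CPM + 0.1 in each course, and black marks are the edgeR log2 fold change with its standard error. All 23 genes lie on 1 side of 0 in the 3 courses, from 5.20 for Cubn to -5.31 for Inhbb. Genes were named only where the 3 courses moved alike.

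The naive pluripotency factors fell together. Of 20 list members tested, 16 fell and none rose, with a median log2 change of -1.94. Tfcp2l1, a transcription factor downstream of LIF and Wnt signalling (chr1:118627945-118685168, positive strand), was at 166, 249 and 279 CPM at day 1 and at 15, 22.5 and 24.4 at day 2, or 231 ± 58.2 against 20.6 ± 4.99 (mean ± SD, n = 3 courses). Its log2 fold change was -3.48 ± 0.07 (adjusted p = 6.4e-05). Each day 1 library was far above each day 2 library, and the courses kept the same order on both days.

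Naive genes differed in when they fell. Zfp42 (Rex1), a naive marker, had barely moved on the first day, with 347, 360 and 346 CPM at day 0 and 313, 331 and 393 at day 1. It then fell to 33.8, 37.3 and 46.5 at day 2 (log2 fold change -3.15 ± 0.07, adjusted p = 6.4e-05). Nr0b1 (Dax1), a corepressor, and Zfp57, which protects imprints, stood higher at day 1 than at day 0 in every course. Nr0b1 went from 42.8, 43.4 and 72.6 CPM at day 0 to 222, 141 and 175 at day 1 and 26.5, 27.6 and 13.8 at day 2. Tfcp2l1 by contrast had already lost most of its level on the first day, from 2067, 1812 and 1959 CPM at day 0. Esrrb, an orphan nuclear receptor, was at 243, 312 and 312 CPM at day 1 and at 37.3, 53.4 and 35 at day 2. Prdm14, a repressor of Fgf signalling, was at 5.49, 6.21 and 7.85 CPM at day 1 and at 0.337, 0.0594 and 0.254 at day 2, the last within a few counts of 0. Nanog reached 67.4, 62.8 and 57.2 CPM by day 1.5 and was at 72.7, 77.0 and 37.1 at day 2, against 170, 246 and 249 at day 1. Its mean log2 level had thus moved by 96.2% of the day's change at day 1.5.

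The 4 naive genes that did not pass the test were Klf2, Dppa3, Fgf4 and Gbx2. Gbx2 split by course, from 40.0, 37.3 and 44.7 CPM to 10.9, 75.8 and 111, lower at day 2 in serum EBs and higher in both adherent courses. Klf2 was also lower in serum EBs, from 23.4, 11.5 and 20.4 CPM to 6.12, 12.7 and 32.4, and without the serum EB course its log2 change was 0.44 ± 0.15 (adjusted p = 0.045). Fgf4, by contrast, stayed high in serum EBs, at 210 and 192 CPM, and was lower at day 2 in FA (146 and 82.5) and N2B27 (151 and 43.7).

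Of 10 general pluripotency factors tested, 6 fell and 1 rose, with a median of -0.39. Without N2B27 2 fell, without the FA course 4, and with the spread taken over all 23 libraries from 2iL none. Pou5f1 (Oct4) fell from 686, 609 and 676 CPM to 500, 499 and 448, and Sox2 from 235, 206 and 214 to 173, 108 and 103. The member that rose was Lin28a, which encodes an RNA-binding protein that blocks let-7 maturation. It went from 268, 191 and 270 CPM to 490, 540 and 799 (log2 fold change 1.31 ± 0.15, adjusted p = 0.0031). Of 10 genes of the Lin28 and let-7 axis 4 rose (2 without the block) and none fell, and the paralog Lin28b rose from 13.1, 7.53 and 10.2 CPM to 62.1, 44.2 and 42.2, with no overlap of the days.

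Of 13 formative epiblast factors tested, 5 rose and 1, Tcf7l1, fell, with a median of 0.19. Pim2, a kinase gene on the X chromosome, rose from 81.9, 20.0 and 25.4 CPM to 353, 240 and 301 (log2 fold change 3.06 ± 0.32, adjusted p = 0.0026). Sox3, Sall2, Pou3f1 (Oct6) and Fgf5 rose by 1.42 to 2.08 on the log2 scale. Fgf5, the ligand gene used as a marker of the early postimplantation epiblast, was uneven between courses. It was at 22, 2.32 and 2.38 CPM at day 1 and at 83.2, 22.5 and 4.89 at day 2, so that the day 1 serum EB library lay above the day 2 library in N2B27. Otx2 had reached 97.2, 36.2 and 27.1 CPM at day 1, from 2.88, 6.22 and 3.04 at day 0, and was at 117, 28.4 and 16.9 at day 2, which did not pass the test. Lef1 did not pass either, at 121, 24.8 and 26.2 CPM and then 121, 160 and 168. Without the block 3 members of the list rose.

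Among the enzymes that set and remove DNA methylation, 3 of 9 tested rose and 2 fell, and without the block 1 rose and 0 fell. Dnmt3b, a de novo methyltransferase (chr2:153649450-153687730, positive strand), rose from 1027, 317 and 365 CPM to 2651, 925 and 960 (log2 fold change 1.44 ± 0.07, adjusted p = 0.00059). The change was even although the serum EB course stood above the other two on both days. Dnmt3a and Tdg, a glycosylase of the demethylation pathway, rose by 0.64 ± 0.11 and 0.50 ± 0.09. The dioxygenases Tet1 and Tet2 fell, Tet2 from 296, 434 and 438 CPM to 34.9, 184 and 188 (log2 fold change -1.82 ± 0.38, adjusted p = 0.02). Dnmt3l, the catalytically inactive partner of the de novo enzymes, was at 800, 443 and 415 CPM and then at 522, 655 and 594, lower in serum EBs and higher in the other courses.

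**Figure D2:**
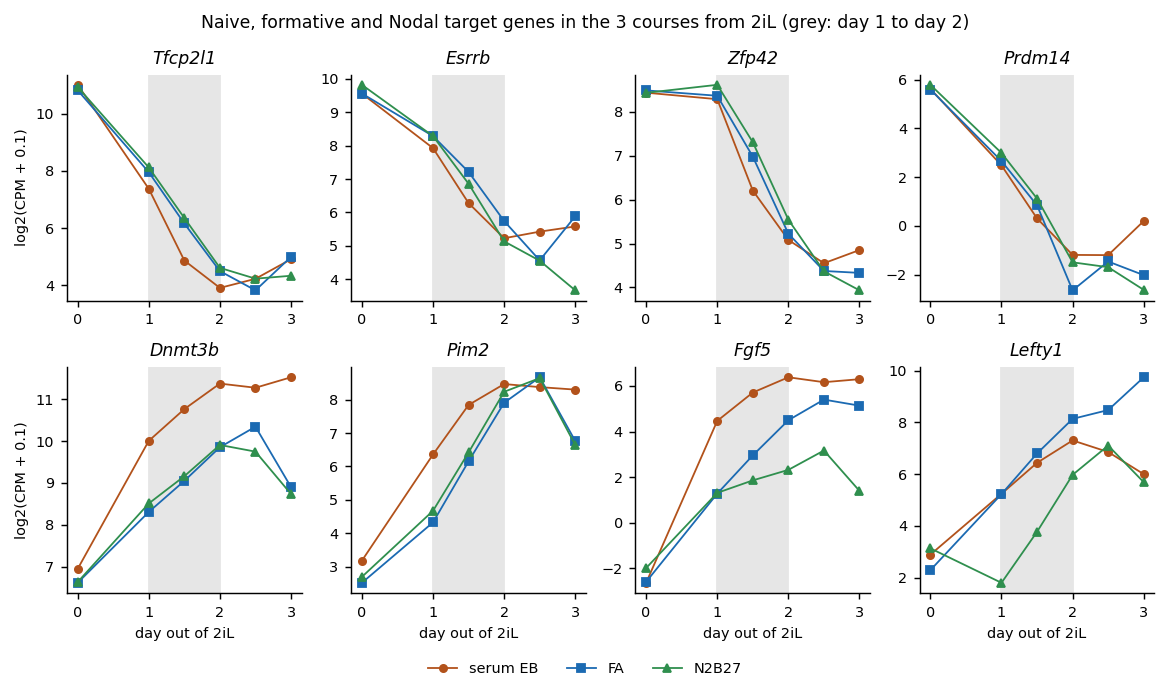
Expression as log2(CPM + 0.1) (y axis) by day after leaving 2iL (x axis) for 4 naive factors, 3 formative epiblast genes and the Nodal target Lefty1, 1 library per course and day, with day 1 to day 2 in grey. Tfcp2l1, Esrrb, Zfp42 and Prdm14 fall across the grey span in all 3 courses, and Dnmt3b and Fgf5 rise from a higher day 1 level in serum EBs.

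In the Nodal and Activin pathway 5 of 15 tested rose and none fell. The rises included those of the targets Lefty1, Lefty2 and Skil and of the Smad partner Foxh1, while the ligand gene Nodal, at 64.1, 58.0 and 42.3 CPM and then 65.9, 43.9 and 23.1, did not pass. Lefty1, which encodes a Nodal inhibitor, rose from 37.6, 37.3 and 3.38 CPM to 157, 281 and 62.6 (log2 fold change 2.93 ± 0.37, adjusted p = 0.0041). The N2B27 course was the lowest on both days. Activin A was added in the FA course only, and serum EBs were at the FA level at day 1. The part of Activin A in these levels was not tested. Lefty1 and Lefty2 are similar in sequence, so their reads may be divided between them. Without the block no member of the list passed. The share called, 5 of 15, stands beside 26.1% of all genes tested.

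In the Fgf and ERK list 4 of 18 rose, which were the ligand genes Fgf5, Fgf8 and Fgf15 and the receptor gene Fgfr2, and 2 fell, which were Spred2 and Etv4. Etv4, an ERK-responsive transcription factor, fell from 138, 137 and 159 CPM to 42.4, 74.6 and 62.5 (log2 fold change -1.31 ± 0.16, adjusted p = 0.0038). Without the block 1 member rose and 1 fell. Of all genes tested 26.1% were called.

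Of 9 Wnt targets tested, Notum and Ccnd1 fell and Nkd1 and Tcf7 rose, and neither rise was called without the FA course or without N2B27. Notum, an extracellular Wnt inhibitor, was at 47.3, 47.6 and 45.9 CPM at day 1, as at day 0 (46.8, 45.9 and 46.0), and at 2.05, 7.07 and 8.57 at day 2. In the LIF and Stat3 list 5 of 10 fell and none rose. The receptor gene Lifr went from 261, 247 and 211 CPM to 80.2, 78.3 and 52.8 (log2 fold change -1.78 ± 0.09, adjusted p = 0.00059), and the others were Klf4, Tfcp2l1, Bcl3 and Stat3 itself. In the BMP list 2 of 13 fell, the ligand gene Bmp4 and the inhibitor gene Smad6, and 3 rose, which were Bmpr1a, Smad5 and Msx1. No BMP gene passed in either direction without the FA course, and without the block 0 rose and 1 fell. The counts of the Wnt, LIF and BMP lists stand beside 26.1% called of all genes tested.

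Genes of extraembryonic endoderm, the lineage of the yolk sac, were the list with the highest median. Of 12 members tested 9 rose and none fell, with a median log2 change of 2.00. Cubn and Dab2 led the list, and Gata4, Sox7, Pdgfra, Lama1, Col4a1, Amn and Hnf4a rose by 1.13 to 2.69 on the log2 scale. Sox7 and Amn passed the filter on low counts through their day 2 libraries, which left them little room to fall. Gata4, a transcription factor of this lineage, went from 0.762, 0.502 and 0.380 CPM to 2.88, 4.70 and 3.68. Gata6 and Sox17 did not pass the test, since they were higher at day 2 in FA and N2B27 only. Sox17 was at 1.22, 0.565 and 0.618 CPM at day 1 and at 0.648, 4.46 and 5.08 at day 2. Afp, Ttr and Apoa1, genes of the mature visceral endoderm, did not pass the filter on low counts and reached at most 1.24 CPM at day 2. The summed level of the list was 77.3 to 132 CPM at day 1 and 294 to 416 at day 2, after 238 to 297 at day 0, where Lama1 held most of it with 213, 251 and 216. In bulk RNA, more cells of a type and more RNA per cell cannot be told apart. Without the FA course 3 members rose.

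Of 10 tested genes of the primitive streak and mesendoderm, 4 rose, which were Lhx1, Wnt3, Fgf8 and Foxa2, and none fell. All 4 passed the filter on low counts through their day 2 libraries, and none was above 0.396 CPM at day 1. The filter thus left them little room to fall, and their shared direction is no separate result. Lhx1 had 1 read in the 3 day 1 libraries together and 219 in those of day 2, and Wnt3 had 2 and 115. With the day 1 total set to 3 counts, day 2 was 69.1-fold and 36.3-fold higher. These ratios are no lower bounds, since so few reads leave the day 1 level uncertain. The defining streak gene T was at 0.427, 0.816 and 0.476 CPM and then at 0.570, 0.594 and 0.381, below its day 0 level in 2iL, and Gsc and Mesp1 stayed under the filter. Of 9 neural progenitor genes tested, Nes, Sox11, Ncam1 and Map2 rose and Tubb3 fell, while Hes5 had at most 1 read in each library. Without the block 2 of these rose and 0 fell. Nes and Ncam1 had been higher at day 0, in 2iL, than at day 1 in every course. At day 2 Nes was above its day 0 level in serum EBs and FA and below it in N2B27. Ncam1 reached 9.75, 13.4 and 25.1 CPM at day 2, below its 44.4, 45.7 and 48.6 at day 0. Sox11 and Map2 were above their day 0 levels at day 2 in every course. Sox1, the earliest neural marker, was at 5.39, 15.5 and 18.4 CPM and then at 4.28, 38.3 and 48.7, higher at day 2 in the adherent courses only (adjusted p = 0.13). Hes5 was thus all but absent from the course labelled neural at day 2, and Sox1 was at similar levels in it and in FA. Of 8 trophoblast markers tested Krt7 and Krt18, keratins of simple epithelia, rose and Gata3 fell, with no call without the block, and Elf5 had at most 1 read in each library. Of 4 fibroblast markers tested 2 rose, and their part in the results above was not tested. The fibroblast markers Lum and Col3a1 stayed at or below 0.311 CPM, while Dcn rose from 2.62, 0.0627 and 0.285 CPM to 11.1, 8.38 and 9.58, and Col1a2 rose from 0.183, 0.0627 and 0.0951 to 1.32, 0.832 and 0.762.

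**Figure D3:**
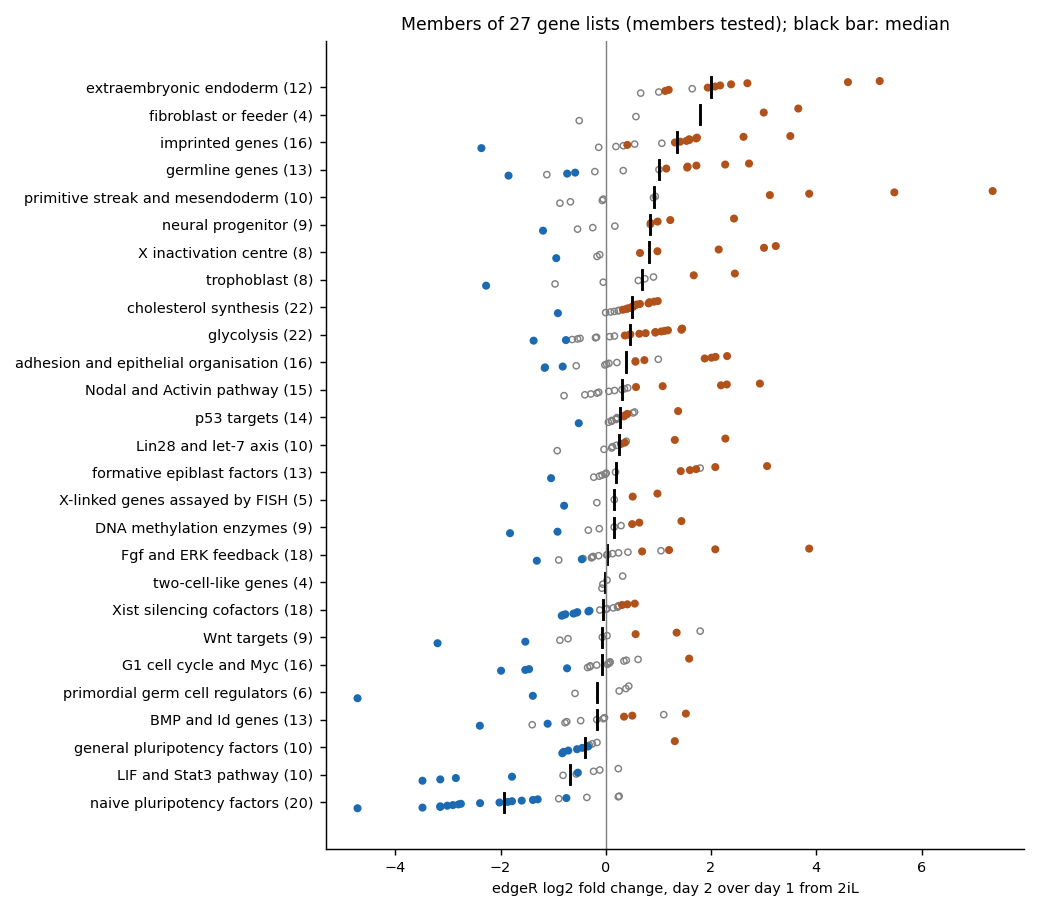
Log2 fold change from day 1 to day 2 out of 2iL (x axis) of each tested member of 27 gene lists (y axis, members tested in brackets), with filled points past an adjusted p of 0.05, open points not, and black bars for medians. Medians run from -1.94 for naive factors to 2.00 for extraembryonic endoderm, and the rightmost streak genes, Lhx1 and Wnt3, rest on 1 and 2 reads at day 1.

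Xist rose on this day in all 3 courses. It was at 2.04, 1.38 and 1.62 CPM at day 1 and at 15.8, 11.1 and 13.7 at day 2, with a log2 fold change of 3.01 ± 0.16 (adjusted p = 0.0006). At day 1.5 the level was 25.3, 9.85 and 11.7 CPM, so that it was above the day 2 level in serum EBs and still below it in FA and N2B27. Tsix, its antisense repressor, fell from 11.1, 9.79 and 8.65 CPM to 7.10, 4.04 and 4.44 (log2 fold change -0.94 ± 0.18, adjusted p = 0.016). Reads were counted by strand, so these genes are counted apart although they overlap. Of the 8 genes of the X inactivation centre tested, 5 rose, among them Xist, Ftx, Tsx and Rlim, and only Tsix fell, while without the FA course 3 rose and none fell. Rlim (Rnf12), a ubiquitin ligase that activates Xist, went from 267, 242 and 213 CPM to 607, 460 and 379 (log2 fold change 0.98 ± 0.09, adjusted p = 0.0019). Ftx, a non-coding activator of Xist, went from 3.47, 1.82 and 2.62 to 24.6, 8.02 and 6.54.

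The cofactors through which Xist silences genes did not move as 1 group. Of 18 tested, 3 rose (Smchd1, Lbr and Hnrnpu) and 7 fell (Eed, Suz12, Aebp2, Jarid2, Spen, Rnf2 and Ezh2), with a median of -0.06. Without the FA course 1 rose and 3 fell, without N2B27 1 and 4, and without the block 1 and 5. The genes that fell encode Polycomb proteins with the exception of Spen, which encodes a repressor that binds Xist RNA. Suz12 went from 220, 299 and 227 CPM to 149, 159 and 110.

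Among all 554 X-linked genes tested, 108 rose and 77 fell, or 19.5% and 13.9%, beside 12.9% and 13.0% of 13423 autosomal genes. The median fitted log2 fold change of X-linked genes exceeded that of autosomal genes by 0.00932. On another measure, the change in log2(CPM + 0.1) within each course, the medians differed by 0.0298, 0.0464 and 0.0329. No test was made of these medians, since an exact sign-flip test over 3 courses cannot give a p below 0.25. The X-linked genes called included Pim2, Amot and Rlim upward and C77370 (Nexmif) downward, from 311, 172 and 150 CPM to 202, 95.3 and 79.8.

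**Figure D4:**
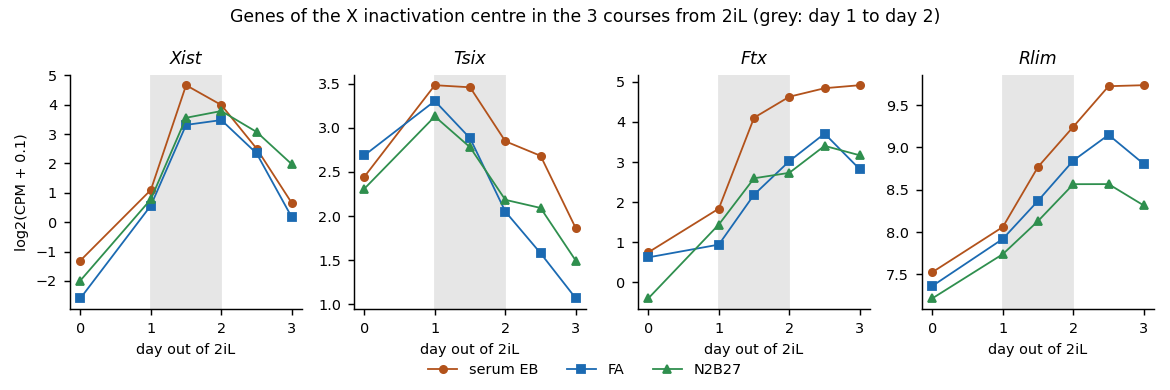
Expression as log2(CPM + 0.1) (y axis) of Xist, Tsix, Ftx and Rlim by day after leaving 2iL (x axis), 1 library per course and day, with day 1 to day 2 in grey. Xist goes from 1.38 to 2.04 CPM at day 1 to 11.1 to 15.8 at day 2, and Tsix falls over the same span.

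The sequences before the starts of a gene that rose steeply, of Xist and of a gene that fell steeply are shown to let their base composition be read beside their changes. They are the 250 bases before the RefSeq start on GRCm38.p6, of Cubn (chr2:13491877-13492126, negative strand), Xist (chrX:103483234-103483483, negative strand) and Bhmt (chr13:93637759-93638008, negative strand). Capitals mark CG dinucleotides in Cubn and Xist, and in Bhmt the letters TCAAGGTCA, the site to which Esrrb is known to bind.
Cubn: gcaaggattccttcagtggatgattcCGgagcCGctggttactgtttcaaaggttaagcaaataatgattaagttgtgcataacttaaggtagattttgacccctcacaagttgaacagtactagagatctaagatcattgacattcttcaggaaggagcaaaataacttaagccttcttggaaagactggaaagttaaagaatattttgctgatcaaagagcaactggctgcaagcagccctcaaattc
Xist: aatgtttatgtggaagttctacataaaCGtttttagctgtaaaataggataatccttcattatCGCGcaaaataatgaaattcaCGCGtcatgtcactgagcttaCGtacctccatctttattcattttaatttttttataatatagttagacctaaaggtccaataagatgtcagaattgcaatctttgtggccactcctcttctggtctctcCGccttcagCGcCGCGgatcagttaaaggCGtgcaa
Bhmt: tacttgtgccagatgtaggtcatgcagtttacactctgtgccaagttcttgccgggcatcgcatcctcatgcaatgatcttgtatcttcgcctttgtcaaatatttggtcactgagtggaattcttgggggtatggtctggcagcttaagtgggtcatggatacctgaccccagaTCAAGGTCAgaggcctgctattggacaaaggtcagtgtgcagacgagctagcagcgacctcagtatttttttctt
Cubn has 2 CG dinucleotides in this window, Xist 11 and Bhmt 5, against a median of 15 over the 12990 windows of the genes tested, of whose 14030 symbols 10177 were matched. The letters TCAAGGTCA occur on either strand in 0.262% of all windows, in 0.229% of those of genes that rose and in 0.341% of those of genes that fell. It was 1 of 15 words counted, after the results were known. The others were its inner part CAAGGTCA with the core AAGGTCA, the Klf word GGGTGTGG, the Tcf words CTTTGAA with its variant CTTTGAT, the Otx word TAATCC, the octamer ATGCAAAT, the Stat word TTCCCGGAA, the E-box CACGTG, the TATA box TATAAA, the Gata word GATAAG, the C-rich CCCCTCCC, the cyclic AMP element TGACGTCA and the word CGCG. For 13 of the 15 the share among genes that rose or fell lay within 1.5 percentage points of that of all windows. The exceptions were CCCCTCCC, in 18.0% of windows of genes that rose and 14.7% of all, and CGCG, in 55.0% of windows of genes that fell and 60.0% of all. The limit is absolute, so a word in fewer than 1.5% of all windows, such as TCAAGGTCA, could leave it only by being more frequent. For such rare words it says little. These are descriptions of letters in a window and no test was made.

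Of 22 glycolysis genes tested 13 rose and 2 fell, with a median of 0.45. Ldha, lactate dehydrogenase, went from 841, 171 and 134 CPM to 1676, 546 and 419 (log2 fold change 1.44 ± 0.15, adjusted p = 0.0025), and Pgk1 from 551, 267 and 247 to 1084, 728 and 537. The serum EB library was already higher at day 1 than the FA and N2B27 libraries at day 2 for Ldha, and Hk1 and Pfkp were the members that fell. Reads of genes with many processed pseudogenes, as several of these have, may be divided. Of 22 cholesterol synthesis genes 15 rose and only Ebp fell, with a median of 0.50. Insig1, a sterol sensor, went from 98.3, 185 and 207 CPM to 194, 367 and 412 (log2 fold change 0.99 ± 0.06, adjusted p = 0.00094), with a rise in every course. No member of either list rose in the fit without the block. Without the FA course 5 and 8 members rose, and without N2B27 7 and 8.

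Imprinted genes rose in 10 of 16 cases, with a median of 1.36, and only Plagl1 fell. Meg3, Rian and Mirg, non-coding RNAs of the Dlk1-Dio3 domain, were the most even, and Meg3 went from 58.6, 50.6 and 62.4 CPM to 175, 185 and 204 (log2 fold change 1.72 ± 0.08, adjusted p = 0.00058). H19 was uneven, from 15.1, 7.90 and 4.80 CPM to 40.0, 119 and 208, highest at day 2 in the course where it was lowest at day 1. Plagl1, a zinc finger gene, fell from 37.3, 54.2 and 26.1 CPM to 9.49, 7.07 and 5.59. The count of rises was 6 without the FA course. Airn had no read in the 6 libraries.

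Of 13 germline genes, many of which are silenced by DNA methylation after implantation, 6 rose and 3 fell, and without the FA course 3 rose. Mael, a piRNA pathway gene, rose from 7.95, 6.59 and 8.42 CPM to 23.8, 25 and 27, and Dazl, which encodes an RNA-binding protein, fell from 57.4, 82.5 and 72.5 to 14.5, 26.4 and 19.1 (log2 fold change -1.85 ± 0.10, adjusted p = 0.00061). Of the 6 tested regulators of primordial germ cells Prdm14 and Kit fell and none rose. All 4 two-cell-like genes tested missed the threshold. Among 16 genes of G1 and Myc, Ccnd1, Ccnd2, Ccnd3 and Cdk6 fell and the Cdk inhibitor gene Cdkn1c rose. Ccnd2 went from 20.9, 63.7 and 44.5 CPM to 5.31, 13.0 and 13.7. Of 14 p53 targets Trp53 itself fell and Pmaip1, Aen and Zmat3 rose, of which 0 rose without the FA course and 1 without the block. The shares called in the p53 list and in the G1 and Myc list were near the 26.1% of all genes tested. Of 16 adhesion genes 6 rose and 2 fell. Podxl, a sialomucin of the apical membrane, rose from 56.6, 19.1 and 15.4 CPM to 191, 64.1 and 68.4 (log2 fold change 1.88 ± 0.11, adjusted p = 0.00069), with Lamb1, Cldn6, Zeb2, Epcam and Itgb1, while Fn1 and Itga5 fell. Without the block 2 of these 6 rose.

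The libraries of day 1.5, which entered neither the fit nor the calls, showed how the day was divided. Of the genes that rose, 95.3% had a mean log2 level between those of day 1 and day 2, and of those that fell 95.1%, beside 51.1% of the 10384 genes not called. Called genes were selected for a gap between these same means, so a high share was likely in advance. Genes not called have small gaps and are no equal comparison. The median gene had covered 49.6% of its change at day 1.5 in both directions. Single genes departed from this in both directions. Ncam1 and Nes, which rose over the day, stood below their day 1 level at day 1.5, with shares of -19.8% and -17.2%, and Amn was at -3.33%. Lifr had covered 25.6% of its change, Tsix 28.1% and Tet1 31.8%, while Ccnd1 had covered 84.5% and Nanog 96.2%.

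The courses changed to a similar extent but from different levels. The median size of the log2 change over called genes was 0.871 in serum EBs, 0.860 in FA and 0.882 in N2B27. Across the 14056 genes the log2 changes of FA and N2B27 had a Pearson r of 0.85, and those of serum EBs had 0.691 with FA and 0.686 with N2B27. These are correlations across genes, which are not independent, between single libraries that differ in depth, and called genes make up much of them. At day 1 the serum EB course most often held the highest level of genes that rose and the lowest of genes that fell. Nearness to day 2 was not measured, and a course that stands high on both days counts in the same way. Of the genes that rose, 52.6% were highest at day 1 in serum EBs, against 39.3% of all genes tested, and of those that fell 48.2% were lowest there, against 35.5%.

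The same day in cells that had come from SL was compared by testing, gene by gene, the difference between the changes. Of 14792 genes, 60 (0.406%) passed edgeR's test at an adjusted p of 0.05, and 2063 had an unadjusted p under 0.05. The change was more positive from 2iL in 38 of them (0.257%) and more negative in 22 (0.149%). From SL itself 2162 genes rose and 2032 fell, 15.2% and 14.3% of 14183 tested (29.6% in all). The calls depended on the block and on the courses, since 1 gene passed without the block, 2 passed without N2B27, and 520 and 295 passed in the 2 directions without serum EBs. Without the FA course edgeR called 0 genes, with 933 at an unadjusted p under 0.05, and on all courses DESeq2's Wald test called 215 and 121.

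Of 15 extraembryonic endoderm genes tested 4 passed, all of them more positive from 2iL. Cubn was at 1220, 623 and 536 CPM at day 1 from SL and at 1481, 638 and 765 at day 2, so that its change from SL was 0.27 ± 0.10 on the log2 scale and the difference 4.92 ± 0.50 (adjusted p = 0.025). Every library from SL lay above every library from 2iL, and the 2iL courses had not reached the SL level by day 2. The changes of Dab2, Gata4 and Sox7 were also more positive from 2iL, with differences of 3.86, 2.55 and 2.44. From SL itself Dab2 rose by 0.77 on the log2 scale, while Gata4 and Sox7 did not pass, at 0.087 and -0.067. The summed level of the list in the SL courses was 1510 to 2690 CPM at day 1 and 1490 to 2830 at day 2. Outside the list large differences upward were those of Dkk1, a Wnt inhibitor, Amot, and Myo7a, an unconventional myosin, at 4.02, 3.57 and 3.50. Dkk1 was at 0.305, 0.376 and 0.0951 CPM and then at 3.45, 8.50 and 2.35 from 2iL, beside 8.96 to 21.9 at day 1 and 13.3 to 18.7 at day 2 from SL.

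**Figure D5:**
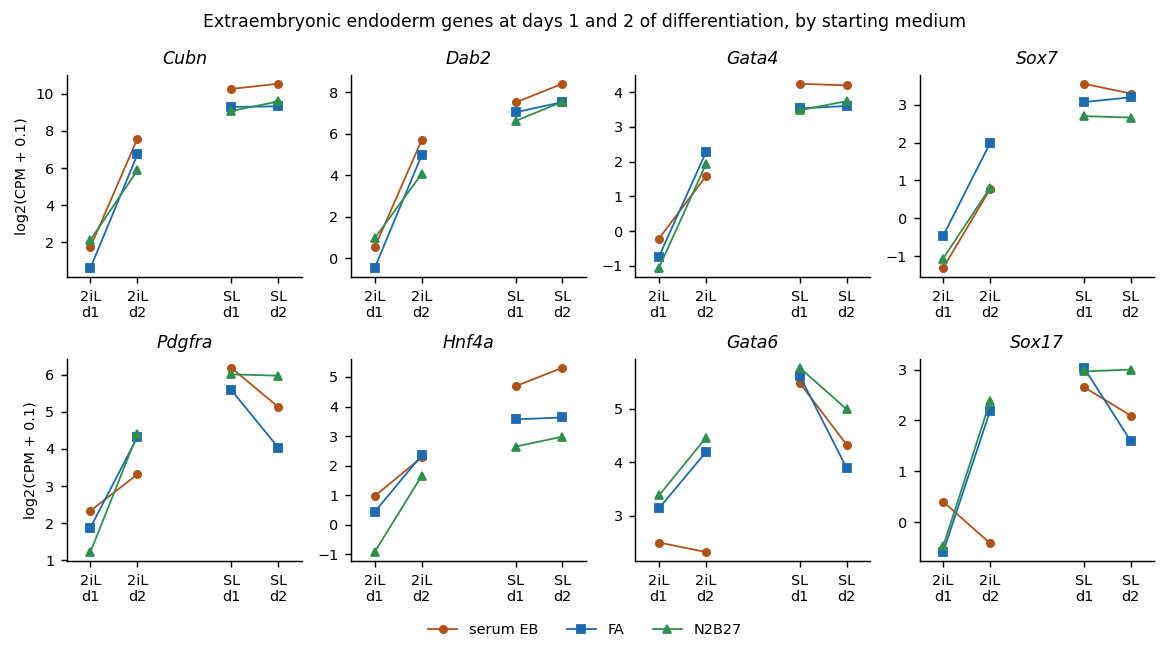
Expression as log2(CPM + 0.1) (y axis) of 8 extraembryonic endoderm genes at days 1 and 2 (x axis) in the 3 courses from 2iL and the 3 from SL, 1 library per point. Cubn, Dab2, Gata4 and Sox7 climb from 2iL towards levels that the SL courses already held at day 1.

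In the other direction the difference was -2.31 for Crxos, which also fell steeply from 2iL, and between -2.08 and -1.39 for She, Ddah1, Brsk2, Rab11fip5, Tead4 and Dclk2. Ddah1, which degrades methylated arginines, fell from 49.8, 35.3 and 26.9 CPM to 7.80, 8.02 and 6.54 from 2iL, and was at 28.0, 20.1 and 19.6 and then 21.1, 12.9 and 20.2 from SL. Tead4, a Hippo pathway transcription factor, fell in both, by 2.69 from 2iL and by 1.21 from SL on the log2 scale. Brsk2 rose from SL and did not pass the test from 2iL. None of the 21 naive factors tested and none of the 13 formative factors passed the test of the difference, beside 0.406% of all genes tested. At that share few or no members of lists of this size would pass, so an equal change from both media is not shown. The change of Xist from SL was 0.33 ± 0.37 on the log2 scale (adjusted p = 0.54), and the difference of 2.67 ± 0.43 from its change out of 2iL had an adjusted p of 0.057.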

How the data were processed

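RNA depleted of ribosomal RNA was sequenced from a directional kit, and the authors trimmed reads with TrimGalore, aligned them with TopHat2 to GRCm38 (mm10) with Ensembl release 82 gene models and 1 mismatch allowed, and used featureCounts for strand-specific counting on genes. The deposited values are these raw read counts, 1 table per library, without normalization. From them, genes passing filterByExpr were tested with edgeR 4.0.16 (R 4.3.3, quasi-likelihood F test, TMM, Benjamini-Hochberg adjustment, course as a block), with DESeq2 1.42.0 as an alternative. The fit has 2 residual degrees of freedom. SEs are the log2 fold change divided by the square root of F. The tests were also run on counts simulated from the means and common dispersion of these data. The simulated courses did not differ from each other, so that run cannot show how the tests handle differences between courses. Deviations of days 1 and 2 of the same course correlated at 0.501, 0.416 and 0.548 over 14056 genes, so the course pairs the libraries. The 3-count floor is a reference for values near 0 and enters no test or standard error. With 1 library per course and day, the spread between cultures of the same course was not measured.

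Genes were named as the 12 largest rises and 12 largest falls among called genes with a mean of at least 5 CPM that moved alike in every course, the 6 largest differences from SL each way at a mean of at least 5 CPM over the 12 libraries compared, and members of 27 lists. Some of these genes are not reported here. The members, lists and motifs were chosen with earlier results of these data known. Of 35372 genes, 34599 were located in GENCODE M21. Promoters came from RefSeq (GRCm38.p6).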

Additional observations from a re-analysis of the deposited data

Results flagged for a closer look

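The genes here are among those whose change from day 1 to day 2 differed between cells from 2iL and from SL in edgeR's test of the difference itself (adjusted p under 0.05 over 14792 genes). Values are the log2 change from 2iL minus that from SL. Among extraembryonic endoderm genes the differences were 4.92 for Cubn, 3.86 for Dab2, 2.55 for Gata4 and 2.44 for Sox7. Dkk1 had 4.02, Amot 3.57 and Myo7a 3.50. Smaller positive differences were those of Ap3b2 (2.53), the synaptonemal complex gene Sycp1 (2.24), Slc25a31 (1.95), Setbp1 (1.71), the laminin gene Lamb1 (1.69) and Lin28b (1.37). On the negative side Crxos had -2.31, She -2.08, Ddah1 -1.98, Brsk2 -1.85, Rab11fip5 -1.66, Tead4 -1.49, Dclk2 -1.39 and Jam2 -1.28. Without the FA course no gene passed this test.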

How the results depend on the processing

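The fit used the course as a block. Without the replicate block, 837 genes rose and 952 fell, 1787 of these 1789 being called with it, and for the difference from SL 1 and 0 passed. Leaving out 1 course gave 580 (no FA) to 2829 (no serum EB) genes higher and 635 to 2730 lower, with 743 and 848 without N2B27. For the difference from SL it gave 0 to 520 and 0 to 295, with 2 and 0 without N2B27. The spread of the 9 libraries of days 1, 1.5 and 2 gave 2852 and 2818. DESeq2's Wald test gave 215 and 121 for the difference from SL, and no filter on low counts gave 104 and 67. The other settings kept these counts within 1.5 times, and no called gene changed sign in any setting. The X-linked minus autosomal median was 0.045 at a mean of at least 5 CPM, -0.0216 with no filter, and 0.0132 to 0.0452 with a course left out. Genes that had not passed changed sign, with log2 changes of 0.44 for Klf2 without serum EB, -0.26 and -0.42 for Gbx2, -0.0504 and -0.031 for Dnmt3l and 0.117 and 0.0152 for T without FA and N2B27, and 0.022 for Otx2 without the block. The cause was not tested. Of 1880 values for 209 genes, 290 lost and 17 gained their call, and 52 of 207 list counts moved by over 1.5 times. Between 15174423 and 39253633 counts per library limit genes near 3 counts.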
